A study of Homo sapiens with 6 samples.

Results

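The S100 genes encode small calcium-binding proteins of the EF-hand family, and 9 of them are described here in human bronchial epithelial cells with and without a splicing factor mutation: S100A2, S100A6, S100A8, S100A9, S100A10, S100A11, S100A13, S100A14 and S100A16. They were chosen by name, and their reads were found through the Ensembl gene ID that ends each isoform name. They are 9 of the 24220 genes and loci in the count table. All of them lie on chromosome 1, most of them in the cluster of S100 genes in band q21.

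HBEC3kt is a cell line from human bronchial epithelium that was made to grow without limit by telomerase and a cell cycle kinase. Its poly(A) RNA was copied into cDNA by the Smart-Seq2 approach and read whole on a nanopore sequencer. The 3 U2AF1 S34F libraries and the 3 wild-type libraries come from 2 cell isolates of each genotype. For both genotypes, replicate 1 was made from isolate 1 and replicate 2 from isolate 2, both with the mark B1, while replicate 3 is a further library of isolate 2 with the mark B2. The labels do not explain B1 and B2 or how the isolates were derived, and they do not say that libraries came from separate cultures, so a p-value here reflects variation among these 6 libraries alone, and that variation may be technical. U2AF1 is the small subunit of U2AF, the factor that contacts the AG at the end of an intron. S34F replaces a serine in one of its zinc fingers by phenylalanine and is known to change which 3′ splice sites are used. The comparison asks how RNA processing differs between the mutant and the wild-type cells.

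An S100 protein usually works as a dimer that opens on binding calcium and then grips a partner protein. In epithelium S100A2 is known as a gene of basal, p63-positive cells, S100A10 and S100A11 bind annexins at membranes, and S100A8 with S100A9 forms calprotectin, an antimicrobial protein that squamous cells and neutrophils make. The basic S100 gene has few exons, the first of them noncoding, with the coding sequence split between the last ones.

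Short windows around the splice sites on which the results turn are shown first. They are read 5′ to 3′ from the minus strand, from GENCODE v29 transcripts (GRCh38) and, for the intron end, from RefSeq (GRCh38.p14). Capitals mark an AG that ends just before a 3′ splice site of the deposited isoforms.
S100A2 exon of 122 bases, first 30 bases (chr1:153563507-153563536): cattccAGagaaccatgtgctgtgagggcc
S100A2 exon of 122 bases, last 30 bases (chr1:153563415-153563444): aagtgattgtcccaagatcacacagcactg
S100A2 last exon, first 30 bases (chr1:153561562-153561591): gAGaaagtggatgaggaggggctgaagaag
S100A2 end of the first intron and start of the second exon (chr1:153563867-153563896): cctctgcAGccacAGatccatgatgtgcAG
S100A2 second exon, bases 11 to 40 (chr1:153563848-153563877): atgatgtgcAGttctctggAGcAGgcgctg
S100A6 second exon of the longer form, first 30 bases (chr1:153535346-153535375): gccctctgctgccAGctccaAGcccagccc
S100A16 last exon, first 20 bases (chr1:153607673-153607692): gacacAGggaaccggaaggc
Each capitalised AG lies directly before a 3′ splice site, and S100A2, S100A6 and S100A16 each have such sites close together. All other positions in the text are in hg19, the build of the deposited files.

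Of the 7 expressed S100 genes 6 had overlapping levels in S34F and wild-type libraries, and none of the 7 passed the gene-level test. Most of the splice events called as different were of S100A2. A cassette exon of 122 bases lies between the second and the last exon of S100A2. Among reads that join the second exon to the main start of the last exon, with or without it, about 3% carried it in every S34F library. In wild-type libraries 5% to 7% of such reads did. Single splice forms of S100A6 and S100A14 were lower in S34F libraries too. Some common 5′ splice sites of S100A10, S100A14 and S100A16 took a larger share of reads in every S34F library than in any wild-type library. Others of S100A14, and those of S100A6 and S100A13, overlapped, and such shares were not computed over all genes.

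The libraries held 811255, 451540 and 1014868 assigned reads in S34F replicates 1, 2 and 3, and 1720292, 1286512 and 1584167 in wild-type replicates 1, 2 and 3. The S100 genes took 1.52% to 2.62% of the reads in S34F libraries and 1.19% to 2.08% in wild-type libraries. Levels are CPM (reads of a gene per 1e+06 reads) after TMM scaling, which adjusts each library's total for its composition. Basal epithelial markers were read in both genotypes, with 16 of 17 genes having reads and a summed level of 6685 to 9273 CPM in S34F and 7034 to 8229 CPM in wild-type libraries. Of 18 myeloid markers 4 had reads, with a summed level of 63.3 to 89.2 CPM in S34F and 62.8 to 92.9 CPM in wild-type libraries, most of it from CD68, which macrophages share with other cells. MPO had 0, 2 and 1 reads in S34F replicates, against 19, 8 and 8 in wild-type replicates, and the part of such cells in the results was not tested. PTPRC, CSF3R and S100A12, also on the list of myeloid markers, had no read. Levels of the S100 genes moved with the B mark: all 7 expressed genes were lowest in replicate 3 among wild-type libraries, and 6 of the 7 among S34F libraries. How many of all genes were lowest in replicate 3 was not counted. The B mark, the split of libraries that the labels give, was a term in the main fitted models. It was not a term in the exact permutation tests.

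S100A2 (ENSG00000196754.6, minus strand, most read isoform 153533585 to 153538146) had 40273 reads. It stood at 12279, 7652 and 6245 CPM in S34F replicates 1, 2 and 3, against 6872, 5025 and 3049 CPM in wild-type replicates. Each mutant library lay above the wild-type library of the same number, but the lowest mutant value fell below the highest wild-type value. The means were 8725 ± 3157 CPM in S34F and 4982 ± 1912 CPM in wild-type libraries (SD, n = 3 each), a log2 fold change of 0.84 with an SE of 0.37 (edgeR adjusted p = 0.264, unadjusted p = 0.0401). The log2 ratio of S34F over wild type was 0.74 within the B1 libraries and 1.03 between the B2 libraries. Without S34F replicate 2, the shallowest library, the change was called (edgeR adjusted p = 0.0399). Another 3872 reads over 25 isoforms overlapped S100A2 exons on the same strand but were placed by the authors at loci without a gene ID. They equalled 5.02%, 6.74% and 9.36% of the S100A2 reads in S34F replicates and 8.88%, 9.12% and 20.9% in wild-type replicates. The S100A2 counts thus leave out more in each wild-type library than in the S34F library of the same number, and most in wild-type replicate 3. With the reads of such loci added, the log2 fold change of S100A2 was 0.76 (edgeR adjusted p = 0.316).

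**Figure D1:**
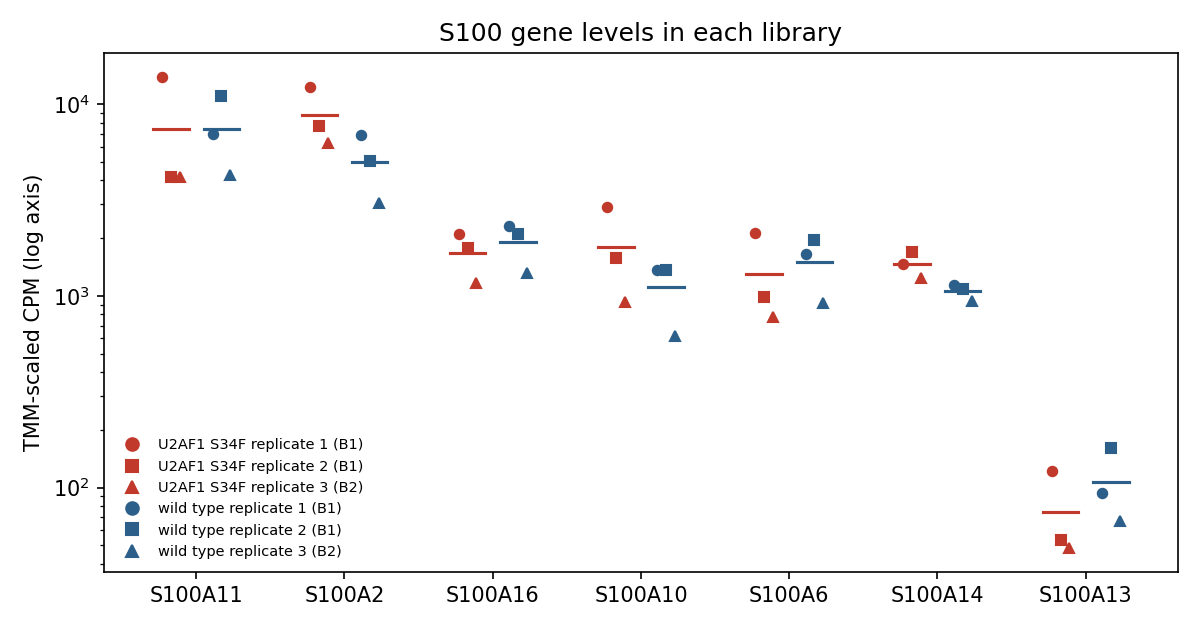
TMM-scaled CPM (log axis) of the 7 expressed S100 genes in each library, U2AF1 S34F left and wild type right; horizontal bars are means of 3 libraries. S100A2 stands at 6245 to 12279 CPM in S34F and 3049 to 6872 CPM in wild-type libraries, and S100A14 is the gene whose ranges do not overlap.

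S100A10, the light chain that pairs with annexin A2, had 2907, 1567 and 924 CPM in S34F replicates, against 1366, 1359 and 617 CPM in wild-type replicates. The ranges overlapped, with S34F replicate 3 below both B1 wild-type libraries. The mean was 1799.5 ± 1012 CPM in S34F and 1114 ± 430.4 CPM in wild-type libraries (log2 fold change 0.67, SE 0.33, edgeR adjusted p = 0.324). S100A11, which binds annexin A1 and is known in the cornified envelope of skin cells, was the most read of the genes, with 46774 reads. Its level was 13923, 4154 and 4192 CPM in S34F replicates, against 6957, 11055 and 4279.7 CPM in wild-type replicates. One mutant library was the highest of all 6 and the other two were the lowest, so the means of 7423 ± 5629 CPM and 7431 ± 3413 CPM hide a wide spread. The log2 fold change was -0.01 (SE 0.44, edgeR adjusted p = 0.997), and it ran from -0.65 to 0.34 when each library was left out.

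S100A6, or calcyclin, known as a marker of proliferating cells and a partner of the ubiquitin ligase adaptor CACYBP, had 2134, 992 and 779 CPM in S34F replicates, against 1654, 1949 and 921 CPM in wild-type replicates. The 2 ranges overlapped and the log2 fold change was -0.22 (SE 0.35, edgeR adjusted p = 0.813). S100A14, a gene of epithelial cells, had 1465, 1701 and 1237 CPM in S34F replicates, against 1134, 1091 and 943 CPM in wild-type replicates. It was the 1 gene of the 7 whose lowest mutant library lay above the highest wild-type library, where 13.1% of all genes tested had ranges that did not overlap. Its means were 1468 ± 232 CPM in S34F and 1056 ± 99.9 CPM in wild-type libraries (log2 fold change 0.47, SE 0.31, edgeR adjusted p = 0.472). S100A16, found in many tissues, had 2089, 1771 and 1162 CPM in S34F replicates, against 2314, 2094 and 1308 CPM in wild-type replicates. The difference was within the spread (log2 fold change -0.18, SE 0.31, edgeR adjusted p = 0.823).

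S100A13, which takes part in the release of the growth factor FGF1 and of interleukin 1 alpha, was the least read of the 7, with 610 reads. Its level was 122, 53.1 and 48.2 CPM in S34F replicates, against 94.1, 161 and 66.6 CPM in wild-type replicates. The log2 fold change was -0.50 (SE 0.33, edgeR adjusted p = 0.478). The authors counted 401 further reads that overlap its exons under another Ensembl ID, ENSG00000271853.1, so the split between the 2 IDs bears on its level. None of the 7 genes passed an adjusted p of 0.05, where the same model called 228 of 7033 genes and loci, or 3.24%. One of the 7, S100A2, had an unadjusted p under 0.05, and DESeq2 and limma-voom called none of them either.

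**Figure D2:**
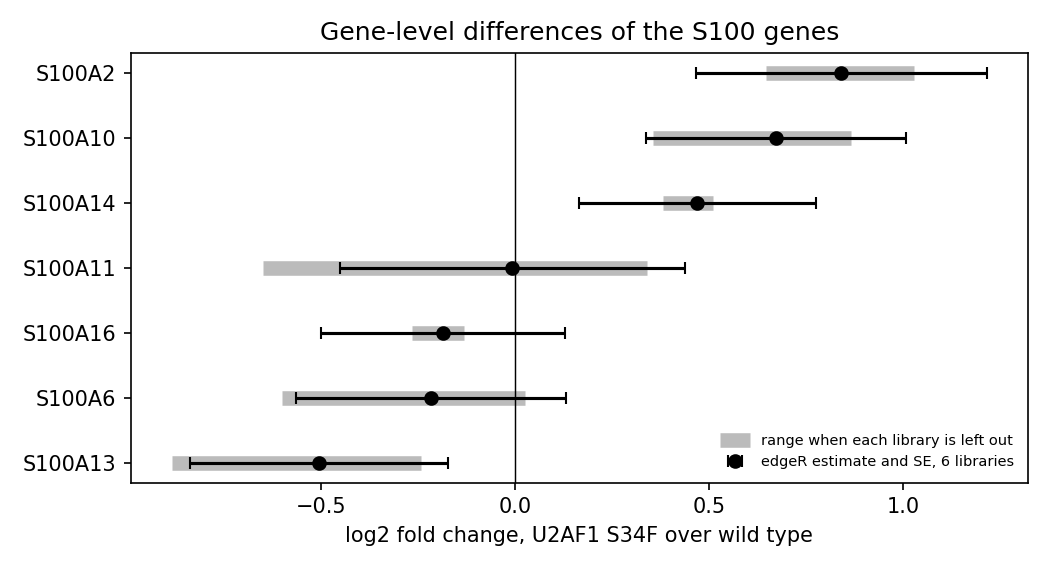
Log2 fold change of U2AF1 S34F over wild type for the 7 S100 genes tested, with its SE (black) and the range of the estimate when each library is left out in turn (grey). S100A2, S100A10 and S100A14 stay above 0, S100A13 and S100A16 stay below, and S100A11 and S100A6 cross 0.

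S100A8 and S100A9 were hardly read and were not tested. S100A8 had 1 read over the S34F libraries and 3 over the wild-type libraries, and S100A9 had 2 over the S34F libraries and 3 over the wild-type libraries. A floor of 3 reads over a group corresponds to 1.32 CPM in S34F and 0.653 CPM in wild-type libraries, without TMM scaling, so no fold is given. Calprotectin transcripts were at or under the floor in both genotypes.

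Per kilobase of the read-weighted isoform length, the order over all 6 libraries was S100A11 (12579 CPM per kb), S100A2 (10129.7), S100A6 (2390.2), S100A10 (2056), S100A16 (1568), S100A14 (1070.4) and S100A13 (133). Single libraries ranged from 7036 to 23582 CPM per kb for S100A11 and from 4507 to 18148 for S100A2, so these genes did not part beyond their spread. S100A2 stayed above the 1326 to 3630 CPM per kb of S100A6, while S100A6, S100A10 (870.5 to 4103), S100A16 (1018 to 2027) and S100A14 (800.2 to 1443) overlapped their neighbours. S100A13, at 70.8 to 237 CPM per kb, stood below all of them in every library. The cDNA was read whole, so a count need not rise with transcript length, and dividing by length can shift this order. In mean CPM S100A16 (1790) stood above S100A10 (1457) and S100A6 (1405), behind S100A11 (7427) and S100A2 (6854). The library values of S100A16, S100A10 and S100A6 overlapped.

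The members' transcripts were spread over 209 isoforms, of which 24 held at least 5% of the reads of their gene. S100A2 had 78 isoforms and 6 such isoforms. Its most read isoform has 3 exons and ends at the far 3′ end (153533585). It held 24.1%, 21.1% and 25.5% of S100A2 reads in S34F replicates, against 18.5%, 18.7% and 24.4% in wild-type replicates. The second ends at the near 3′ end (153533817), with 14.5%, 14.3% and 17.0% in S34F replicates, against 12.7%, 13.9% and 17.5% in wild-type replicates. The next differs from the first in a shorter first exon and held 11.5% of all reads. The remaining 3 of the 6 match these but begin the last exon 3 bases deeper, and held 10.1%, 6.91% and 5.37% of all reads. In isoform-level CPM all 6 had log2 fold changes between 0.85 and 1.05, with edgeR adjusted p-values between 0.0903 and 0.203.

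The other genes were dominated by fewer forms. One isoform held 91.5% of S100A11 reads, and a form whose last exon starts 6 bases deeper held 7.02%. S100A13 had 71.8%, S100A10 66.0%, S100A16 56.4% and S100A6 53.8% of reads in the leading isoform. S100A14 had 4 isoforms with 13.6% to 14.1% each, which differ in their first exons. S100A16 had a second form, with the last exon 7 bases shorter, at 5.33% of reads. The S100A13 isoform with the shorter first exon held 24.3%, 44.0% and 29.4% of that gene's reads in S34F replicates, against 15.2%, 8.95% and 9.82% in wild-type replicates. The groups did not overlap, but these shares rest on 25 to 190 reads per library, and isoform usage of the gene was not called (edgeR diffSpliceDGE adjusted p = 0.200).

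At isoform level 2 of the 136 member isoforms tested were called, or 1.47%, both lower in S34F libraries. Over all isoforms 4.26% of isoforms were called and 2.91% were called lower. The first was an S100A6 isoform with the annotated ID ENST00000496817.1, whose second exon starts 15 bases early. It had 19, 9 and 22 reads in S34F replicates, against 113, 87 and 66 in wild-type replicates (log2 fold change -1.33, edgeR adjusted p = 0.0311). The second was an unannotated S100A2 isoform of 2 exons, in which a single long exon from 153535891 to 153537345 runs through the second exon and the intron behind it. It had 2, 3 and 10 reads in S34F replicates, against 24, 13 and 68 in wild-type replicates (log2 fold change -1.88, edgeR adjusted p = 0.0218). Wild-type replicate 3, the B2 library, held more than all other libraries together. Both calls were lost in the B1 libraries alone, with adjusted p-values of 0.196 and 0.494.

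Isoform usage asks whether the shares of a gene's isoforms differ, apart from its level. S100A2 was the 1 gene of the 7 called (diffSpliceDGE adjusted p = 0.000707), where 0.634% of 2207 genes were called. Its call was kept under the replicate block (adjusted p = 0.00192) and with limma-voom's diffSplice (adjusted p = 0.0467). It was lost without the B term (adjusted p = 0.407) and without S34F replicate 1 (adjusted p = 0.186). It was also lost when S34F replicate 3 (adjusted p = 0.999) or wild-type replicate 3 (adjusted p = 1.00) was left out. Within S100A2 the long-exon isoform was the 1 isoform called for usage, and within S100A14 a 6-exon isoform with 1 exon lengthened by 118 bases was called at the isoform step (adjusted p = 0.0425). That isoform held 0.673%, 0.749% and 0.611% of S100A14 reads in S34F replicates, against 2.21%, 2.02% and 2.14% in wild-type replicates.

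Splice events compare reads of isoforms that use a site, exon or intron with reads of isoforms that do not. S100 genes had 119 events with 10 or more informative reads per library. Of these 7 were called and all 7 were lower in S34F libraries. Over 16300 events of all genes 1.13% were called and 0.779% were called lower. The 119 events share reads, as many of them are built on the same junctions. The model found no spread of its own per event (infinite prior degrees of freedom), and limma on log odds, which estimated 3.51, called none of the events, S100 or other.

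The clearest of them was the S100A2 cassette exon at 153535891 to 153536012. Between the second exon and the main start of the last exon (153534067) it was included in 3.40%, 2.89% and 2.94% of reads in S34F replicates, against 5.51%, 6.89% and 6.61% in wild-type replicates. All 3 mutant libraries lay below all 3 wild-type libraries, at 3.07 ± 0.284% and 6.34 ± 0.727% (log2 odds ratio -1.08, SE 0.22, edgeR adjusted p = 0.000233). The reads behind these shares were 164, 65 and 140 with the exon in S34F replicates, and 390, 260 and 247 in wild-type replicates. When the last exon starts 3 bases deeper (153534064), the inclusion was 0.963%, 1.72% and 0.945% in S34F replicates, against 2.10%, 2.82% and 4.87% in wild-type replicates (log2 odds ratio -1.40, edgeR adjusted p = 0.000621). A form of the exon that starts 8 bases deeper, behind the AG shown in its first bases, is 114 bases long. It was included in 0.30%, 0.182% and 0.216% in S34F replicates, against 0.742%, 0.706% and 0.740% in wild-type replicates (log2 odds ratio -1.58, edgeR adjusted p = 0.00159).

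**Figure D3:**
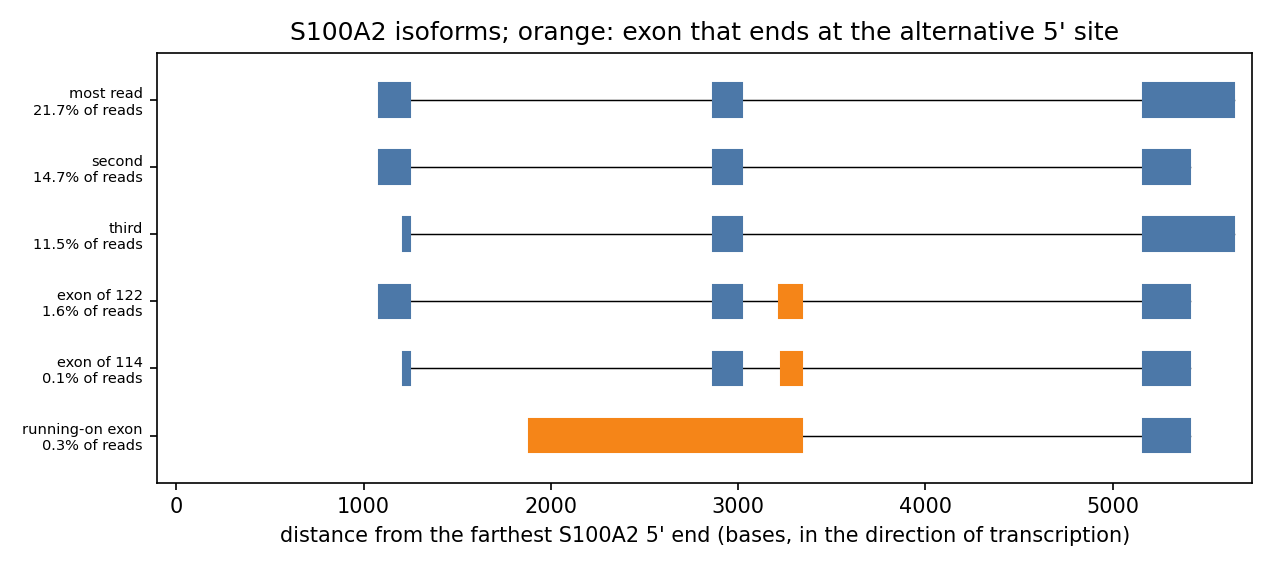
Exons (boxes) and introns (lines) of 6 S100A2 isoforms, plotted by distance in bases from the farthest S100A2 5′ end, with each isoform's share of all S100A2 reads. The orange exons end at the same alternative 5′ splice site; they are 122 bases, 114 bases or, in the isoform at the bottom, a long exon that starts in the first intron.

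The exon of 122 bases is annotated: GENCODE gives it to the coding transcript ENST00000368707.4. Its length leaves a remainder of 2 when divided by 3, so it moves the reading frame, and in that transcript 22 bases of the last exon are coding, against 150 in ENST00000368708.7, the transcript of the leading isoforms. The form of 114 bases leaves a remainder of 0. Read on from the start codon in the main second exon, its last bases, shown above, hold an in-frame TGA, a stop codon. Its length alone therefore does not mean an open reading frame.

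All reads that splice at 153535891, the 5′ splice site at the end of this exon, were then taken as a share of all S100A2 reads. The site was picked because this exon had the smallest p of the S100A2 cassette exons in the event model. Its shares rest largely on the same reads, so they describe that difference again and are no separate support for it. The site took 3.04%, 3.05% and 3.07% of reads in S34F replicates, against 5.61%, 6.91% and 8.51% in wild-type replicates. The S34F libraries were almost equal and all lay below the wild-type libraries, whose counting intervals did not overlap one another. The exact 95% intervals were 2.66% to 3.45%, 2.52% to 3.67% and 2.67% to 3.52% in S34F replicates, and 5.20% to 6.05%, 6.27% to 7.58% and 7.76% to 9.30% in wild-type replicates. They cover counting error only, since PCR copies are not independent molecules. The means were 3.05 ± 0.0167% in S34F and 7.01 ± 1.45% in wild-type libraries (SD, n = 3 each). An exact 2-sided permutation test gave p = 0.1, the smallest that 3 against 3 libraries allow. Within the B1 libraries the means were 3.04% in S34F and 6.26% in wild type. With the reads of the loci without a gene ID added, the means were 2.92% in S34F and 6.34% in wild-type libraries.

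Most of these reads carried the exon of 122 bases, which made up 2.69%, 2.72% and 2.59% of S100A2 reads in S34F replicates, against 4.60%, 5.86% and 6.28% in wild-type replicates. The exon of 114 bases made up 0.301 ± 0.0449% in S34F and 0.841 ± 0.0512% in wild-type libraries. The long exon that runs on from the exon before made up 0.0268%, 0.0833% and 0.151% in S34F replicates, against 0.208%, 0.219% and 1.33% in wild-type replicates. The 2 genotypes did not overlap for any of the 3 forms.

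**Figure D4:**
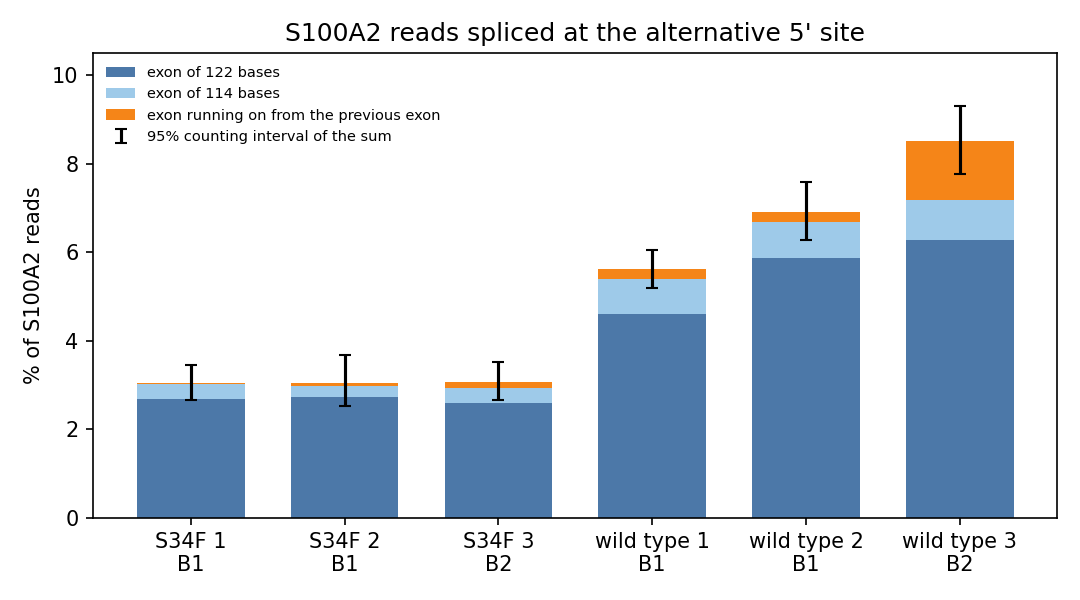
Share of S100A2 reads spliced at the alternative 5′ splice site in each library, split by the exon that ends there; whiskers are exact 95% counting intervals of the sum. The S34F libraries stand at 3.04% to 3.07% and the wild-type libraries at 5.61% to 8.51%, with the long exon visible mainly in wild-type replicate 3.

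The long exon gave the largest change in the event model. Joined to the main last exon, the site at 153535891 was used in place of the main 5′ site 319 bases upstream (153536210) in 0.0429%, 0.137% and 0.216% of reads in S34F replicates, against 0.358%, 0.368% and 1.91% in wild-type replicates (log2 odds ratio -2.82, SE 0.41, edgeR adjusted p = 2.26e-08). The intron of 197 bases between the second exon and the exon of 122 bases was kept in 1.05%, 3.41% and 6.06% of informative reads in S34F replicates, against 4.87%, 4.0% and 18.6% in wild-type replicates (log2 odds ratio -1.63, edgeR adjusted p = 0.0118). Here the ranges overlapped. Both events count the same 120 reads as the called isoform, 68 of them from wild-type replicate 3, so they are 1 observation and not several.

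S100A2 had 17 5′ splice sites, and 7 comparisons of alternative 5′ sites were tested. Besides the one just given, none was called. The main site of the second exon has a neighbour 4 bases downstream (153536206). Joined to the last exon that starts 3 bases deeper, the neighbour took 4.52%, 5.99% and 6.02% of reads in S34F replicates, against 7.67%, 8.81% and 10.1% in wild-type replicates (edgeR adjusted p = 0.0804). Joined to the main last exon it took 2.04%, 2.93% and 3.91% in S34F replicates, against 3.83%, 3.22% and 3.41% in wild-type replicates, and the ranges overlapped (edgeR adjusted p = 0.754). Joined to the exon of 122 bases it took 5.97%, 13.3% and 9.36% in S34F replicates, against 11.7%, 10.1% and 7.76% in wild-type replicates. A site in the second exon, 53 bases upstream (153536263), was used in under 1% of reads in every library with either start of the last exon. A site that lengthens the first exon by 271 bases (153537711) was used in 0.198%, 0.394% and 0.483% of reads in S34F replicates, against 0.594%, 0.714% and 0.467% in wild-type replicates (edgeR adjusted p = 0.288). As shares of all S100A2 reads, the site at the end of the first exon (153537982) took 96.5 ± 0.507% in S34F and 94.3 ± 1.29% in wild-type libraries, and the main site of the second exon 95.6 ± 0.993% in S34F and 93.6 ± 0.371% in wild-type libraries. For each of the 2 the genotypes did not overlap, with S34F higher. On the same scale, over all partner exons, the neighbour at 153536206 took 3.05%, 4.33% and 4.64% in S34F replicates, against 5.76%, 5.61% and 5.35% in wild-type replicates. A first-exon site at 153539178 took 1.55%, 2.0% and 1.89% in S34F replicates, against 2.30%, 2.38% and 2.40% in wild-type replicates. Both were lower in every S34F library than in any wild-type library. The exact 2-sided permutation test gave p = 0.1 for each of these 4 sites, the smallest it can give. Shares of the same reads trade off, so the 4 are not separate observations. Reads at loci without a gene ID were not added here. Some common 5′ sites of other members also had no overlap, with S34F higher. The S34F and wild-type means were 90.3% and 86.3% for S100A10 (151966228) and 84.1% and 77.7% for S100A14 (153588305). For S100A16 (153585428) they were 79.7% and 75.3%. Those of S100A6 (153508425) and S100A13 (153599615) overlapped. So did the S100A14 sites at 153588771 (S34F and wild-type means 81.2% and 76.2%) and 153589329 (36.6% and 33.6%). Such shares were not computed over all genes.

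At 3′ splice sites, no S100A2 event was called. The start of the last exon is a pair 3 bases apart, shown above with its AG. Behind the main second exon the upstream site of the pair took 66.3%, 65.6% and 75.9% of reads in S34F replicates, against 65.1%, 67.6% and 78.5% in wild-type replicates. In both genotypes the B2 library stood above the B1 libraries (edgeR adjusted p = 0.952). The second exon has deeper starts 6, 21, 31 and 34 bases in. Against the start 34 bases in, the main start took 95.8%, 94.4% and 93.8% in S34F replicates, against 91.7%, 92.0% and 92.1% in wild-type replicates, with no overlap and an edgeR adjusted p of 0.0911. The start codon of the main transcript lies 13 bases into this exon, so the starts 21, 31 and 34 bases in all leave it out. The start 21 bases in gave 98.3% to 99.0% for the main site in S34F and 97.6% to 97.9% in wild-type libraries (edgeR adjusted p = 0.103). Starts 27, 30, 36 and 57 bases upstream in the intron, each behind an AG in the RefSeq sequence, were used in under 1% of reads in every library.

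The S100A6 event was a 3′ splice site 15 bases upstream of the main start of the second exon (153507851 and 153507836), joined to the first exon that ends at 153508425. It was used in 1.72%, 2.44% and 3.59% of reads in S34F replicates, against 5.46%, 4.90% and 5.36% in wild-type replicates. The mutant libraries lay below the wild-type libraries, at 2.58 ± 0.942% and 5.24 ± 0.30% (log2 odds ratio -1.13, edgeR adjusted p = 0.0172). It rests on 19, 9 and 25 reads in S34F replicates and 120, 90 and 67 in wild-type replicates, most of them from the called isoform. In GENCODE the 15 bases lie before the start codon, which is 36 bases into the longer exon and 21 bases into the main one. Under the replicate block the adjusted p was 0.0560. A site 7 bases deeper than the main one, also behind an AG in the window, did not part the genotypes. The other 14 S100A6 events were not called.

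S100A14 had 48 events tested and 1 call. A 5′ splice site at 153588187 lengthens the exon that otherwise ends at 153588305 by 118 bases. It was used in 3.79%, 2.58% and 2.75% of reads in S34F replicates, against 6.23%, 7.12% and 4.90% in wild-type replicates (log2 odds ratio -1.02, SE 0.28, edgeR adjusted p = 0.0319). The groups did not overlap, and the adjusted p was 0.0831 under the replicate block. A second 5′ site at 153588619, which lengthens the next exon upstream by 152 bases, took 3.96%, 2.76% and 3.52% in S34F replicates, against 5.60%, 7.29% and 6.37% in wild-type replicates, and was not called (edgeR adjusted p = 0.0669). Of the 15 S100A14 retained-intron events tested, many of them overlapping introns with different splice sites, 8 had every S34F library below every wild-type library. None had the reverse, but none was called, and 7 of the 8 count the same reads. The intron of 447 bases downstream of the exon that ends at 153588305, for example, was kept in 0.901%, 0.618% and 0.655% of reads in S34F replicates, against 1.55%, 2.27% and 1.21% in wild-type replicates (edgeR adjusted p = 0.275).

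Over all S100 genes, 33 of the 119 events had ranges that did not overlap, 26 of them lower and 7 higher in S34F libraries. That is 27.7%, where 14.3% of all events had ranges that did not overlap. Lower and higher refer to the share of the longer exon, the included exon or the kept intron, which can be the main form. The main S100A13 5′ site (153599615), against a site 140 bases upstream, was among the 26, at 90.4% in S34F and 95.1% in wild-type libraries. Many of the 33 share reads, the S100A14 retained-intron events and those of the S100A2 exon among them, so they are not separate observations. S100A16 had 16 events, 3 of them lower with no overlap and none called. The intron before its last exon was kept in 0.179%, 0.272% and 0.182% of reads in S34F replicates, against 0.349%, 0.586% and 0.592% in wild-type replicates (edgeR adjusted p = 0.497). The pair of starts of its last exon, 7 bases apart and shown above, gave 89.4%, 89.7% and 91.9% for the upstream site in S34F replicates, against 90.0%, 91.4% and 93.7% in wild-type replicates. The S100A11 pair, 6 bases apart, gave 91.2%, 92.3% and 95.3% in S34F replicates, against 90.5%, 93.5% and 96.9% in wild-type replicates (edgeR adjusted p = 0.784). S100A13 had 4 events and none called, and no S100A10 event reached the minimum of reads.

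**Figure D5:**
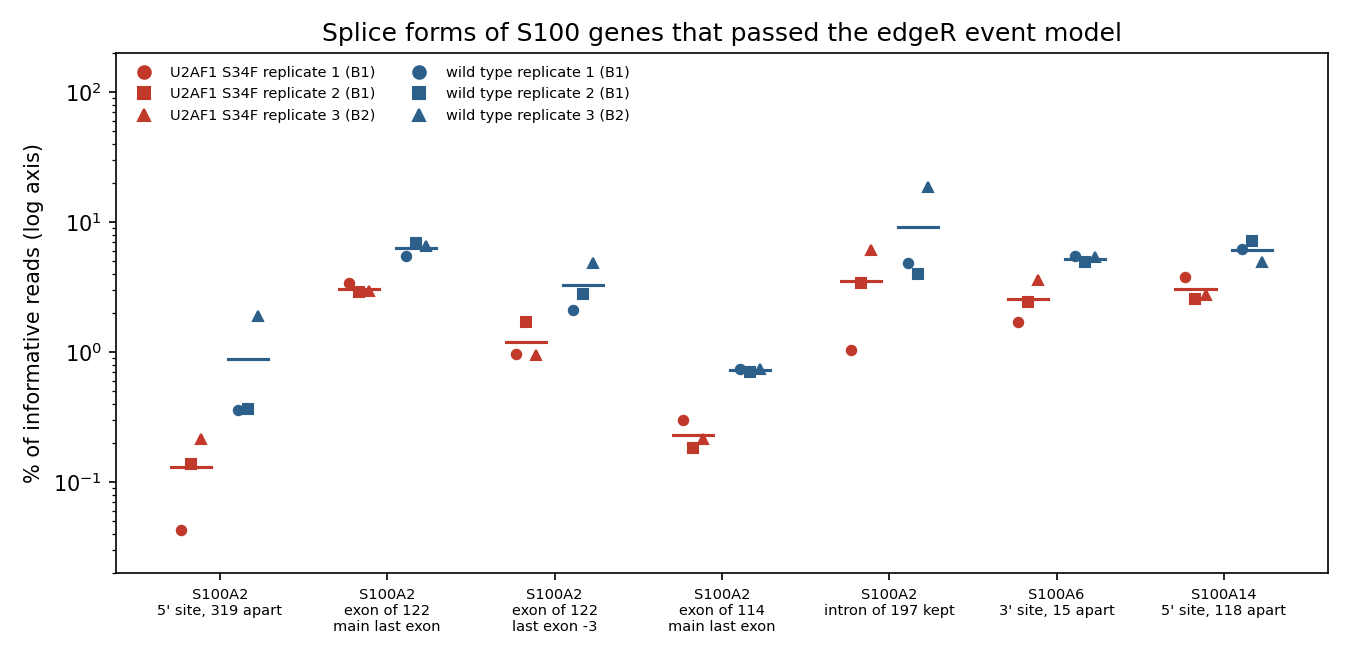
Share of informative reads (log axis) for the 7 splice forms of S100 genes called by the edgeR event model, one point per library, U2AF1 S34F left and wild type right; horizontal bars are means. In 6 of the 7 every S34F library lies below every wild-type library, and the kept intron of 197 bases overlaps.

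In the 4 B1 libraries alone 1 of the 119 events was called, that of S100A6 (edgeR adjusted p = 0.0492). For the exon of 122 bases joined to the main last exon, the log2 odds ratio was -1.0 there with an edgeR adjusted p of 0.124. It was -1.0 as well, with adjusted p-values of 0.125, 0.0764 and 0.123, without S34F replicate 3, wild-type replicate 2 or wild-type replicate 3. Under the replicate block, which takes libraries of the same number as pairs, 4 of the 7 calls were made, all of S100A2. They were the long exon (adjusted p = 1.67e-06) and the exon of 122 bases with the main and with the deeper last exon (adjusted p = 0.00526 and 0.00426). The fourth was the exon of 114 bases (adjusted p = 0.00973).

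The most read pair of 3′ ends could be compared in 6 genes, and none was called, where 0.816% of 2329 genes were. S100A2 used its far end (153533585) over its near end (153533817) in 59.9%, 56.3% and 57% of reads in S34F replicates, against 53.3%, 53.7% and 52.8% in wild-type replicates. The ranges did not overlap, but the difference was not called (log2 odds ratio 0.26, edgeR adjusted p = 0.806). S100A11 used its far end in 99.2%, 98.4% and 98.7% in S34F replicates, against 98.4%, 98.4% and 98.2% in wild-type replicates (edgeR adjusted p = 0.135), and was called without S34F replicate 2 (edgeR adjusted p = 0.0018).

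The 2 isoforms described next joined exons of S100A2 and S100A16, which lie in the same direction with S100A16 upstream. One, counted under S100A2, has the first exon of S100A16 (153585428 to 153585559) spliced to the second exon of S100A2, and the other, counted under S100A16, carries 3 upstream exons. Together they had 78.8, 61.6 and 49.1 CPM in S34F replicates, against 62.6, 44.1 and 23.8 CPM in wild-type replicates. The ranges overlapped (exact 2-sided permutation test p = 0.3).

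Genes that work with the S100 proteins were read beside them. Of 25 binding partners 21 were tested, none was called higher and 2 were called lower, of which 1 is described. Over all genes and loci tested 2.13% were called lower and 1.11% higher in S34F libraries. IL1A, the gene of interleukin 1 alpha, had 5.51 ± 6.54 CPM in S34F and 27.7 ± 5.40 CPM in wild-type libraries (log2 fold change -2.45, edgeR adjusted p = 0.0299). The median log2 fold change of the 21 was 0.13, against 0.02 over all genes tested. Of 12 receptors and signalling partners 5 were tested and none was called. NFKB1 and MYD88 had the smallest p-values (edgeR adjusted p = 0.618 for both), and AGER, the receptor RAGE, had 2 reads in S34F and 4 in wild-type libraries.

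Of 23 calprotectin regulators and antimicrobial genes 7 were tested. None was called higher and 3 were called lower, where 2.13% of all genes and loci were called lower. The median log2 fold change of the 7 was -1.57, against 0.02 over all genes tested. IL1B, an inflammatory cytokine gene, had 21 ± 6.96 CPM in S34F and 343 ± 14.3 CPM in wild-type libraries (log2 fold change -4.03). SAA1, an acute-phase protein gene, had 147 ± 38.8 CPM in S34F and 540.2 ± 131 CPM in wild-type libraries (log2 fold change -1.90). PI3, the gene of the elastase inhibitor elafin, had 8.63 ± 5.40 CPM in S34F and 77.5 ± 51.2 CPM in wild-type libraries (log2 fold change -3.13). Near-identical SAA1 and SAA2 may share reads.

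Genes of the epidermal differentiation complex, which neighbour the S100 cluster, were hardly read: 4 of 30 had any read and none was tested. Of 17 squamous differentiation markers 5 were tested and 2 were called lower, again against 2.13% of all genes and loci. They were SERPINB2 (4.01 ± 3.49 CPM in S34F, 49.3 ± 10.4 CPM in wild-type libraries) and KRT6B (10.8 ± 0.585 CPM in S34F, 37.7 ± 10.6 CPM in wild-type libraries). Of 17 basal markers 15 were tested, 1 was called higher and 1 lower, where 3.24% of all genes and loci were called. CAV1 rose to 295 ± 38.5 CPM in S34F, against 97.6 ± 22.4 CPM in wild-type libraries, and LAMB3 fell to 841 ± 170 CPM in S34F, against 2175 ± 240 CPM in wild-type libraries. Of the other S100 genes looked up, S100A3, S100A4 and S100A5 had reads, and the one tested, S100A3, had 16.3 ± 4.87 CPM in S34F and 23.0 ± 7.12 CPM in wild-type libraries (edgeR adjusted p = 0.622). Of 15 secretory and ciliated markers and of 11 fibroblast markers, 1 each had any read.

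The genes whose pattern over the 6 libraries was most like that of S100A2, among 4617 genes at 20 CPM or more, were ACOT8, DANCR and KRT8. They lay at a root mean square difference of 0.086, 0.124 and 0.125 in centred log2 CPM. KRT8, a keratin gene of simple epithelia, had 463, 346 and 277 CPM in S34F replicates, against 314, 221 and 153 CPM in wild-type replicates. S100A8 and S100A9 had too few reads for such a search.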

How the data were processed

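The deposited table holds raw counts of long reads per isoform, made by the authors for the 6 libraries over a single isoform set with exon positions in hg19, per the submitters' processing notes. The sources used here give no aligner, filter or use of strand. All sample columns were used. The members and gene lists were chosen with earlier results of these data known. Counts were summed per gene and tested with edgeR 4.0.16 (quasi-likelihood, TMM, filterByExpr with 10 reads and 15 in total, a B1/B2 term, Benjamini-Hochberg at 0.05), leaving 3 residual degrees of freedom. For isoform usage diffSpliceDGE was used, and splice events and 3′ ends (merged within 100 bases) were tested as 2 counts per library in edgeR. DESeq2 1.42.0 and limma 3.58.1 (log odds with offset 0.5) were alternatives. Scripts were tested on simulated data. Libraries of the same number deviated together from their group means (correlations across genes of 0.490, 0.163 and 0.850), so the replicate numbers of the labels were taken as pairs in the replicate block. Within B1 the crossed pairs correlated more (0.548 for S34F 1 with wild type 2, 0.330 for S34F 2 with wild type 1), so only the B mark sets libraries apart. Named items were all 9 genes, isoforms with 5% of a gene's reads or called, S100A2 5′ site events, events past 10 reads per library, called list members or the 2 with the smallest p, and the 3 genes nearest S100A2 in pattern. Symbols came from a gene name table, and sequences from GENCODE v29 by transcript ID and exon length. A called list member and a sequence window are not reported here.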

Additional observations from a re-analysis of the deposited data

How the results depend on the processing

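The gene-level model called 228 genes and loci. It called 491 without a filter, 72 with 10 reads required in every library, 2 without the B term, 79 in the B1 libraries, 0 with the libraries of isolate 2 summed (edgeR), 91 at equal depth and 67 to 655 when each library was left out. Of the S100 genes it called 0 to 1 when each was left out, the 1 being S100A2 without S34F replicate 2. The log2 fold change of S100A6 reversed without S34F replicate 2 (0.027) and ran from -0.60 to 0.027 when each library was left out. That of S100A11, near 0, reversed with DESeq2 size factors in edgeR (0.0176), in DESeq2 (0.0175), with isolate 2 summed (0.38) and in leave-one-out fits (-0.65 to 0.34, with 0.34 without S34F replicate 2, 0.01 without S34F replicate 3, 0.18 without wild-type replicate 2). The 2 isoform calls became 0 without the B term, in the B1 libraries and at equal depth, and 0 to 13 when each library was left out. The 1 usage call became 0 in the same 3 settings and 0 to 1 when each was left out. The 7 event calls became 0 with limma on log odds, 0 without the B term, 4 under the replicate block, 1 in the B1 libraries (chosen after seeing the data) and 0 to 8 when each was left out. The replicate block changed no other call of an S100 gene, isoform or usage test. For 3′ ends the count of 0 became 0 to 1 when each library was left out. The difference in the share of the S100A2 site kept its direction in all settings, from -4.65 to -3.20 percentage points when each library was left out. Leaving out libraries could not reverse it, as the shares of the 2 genotypes do not overlap. The cause of these shifts was not tested. Outliers were not looked for in groups of 3.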
